A study of Homo sapiens with 4 samples.

Results

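The comparison described here is that of miR-34a mimic against no treatment in parental H1299 cells: 1 RNA-seq library of miR-34a-transfected H1299 was set against 1 library of Non-treated H1299. Members were all genes with 50 or more reads in either library. They numbered 13597 of the 46427 genes in the gene table, 11782 of them protein-coding; the other 32830 had fewer reads in both libraries and were not analysed further. H1299 (NCI-H1299) is an established human non-small cell lung cancer line and was here obtained from a cell bank. The mimic, a synthetic RNA duplex that stands in for the mature miRNA, was delivered at 25 nmol/l with the lipofectamine RNAiMAX reagent and cells were harvested after 48 h. The control is called non-treated, with no mention of a control RNA, so any change due to transfection itself is part of the comparison. The series holds the same 2 treatments in a DDX21 KO line, in which the gene of the RNA helicase DDX21 was knocked out; that pair shares no library with the H1299 pair and is used below only for values side by side.

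miRNAs are short RNAs that guide Argonaute proteins to messenger RNAs, mostly through pairing of the seed near the 5′ end of the miRNA with the 3′ UTR, which shortens the life of the messenger and lowers its translation. miR-34a is known as a tumour suppressor that lowers CDK4, CDK6, MET, AXL, BCL2 and SIRT1, slows the cell cycle and can bring on senescence or apoptosis. The related miR-34b, miR-34c and miR-449 miRNAs are abundant in airway cells that carry many motile cilia, where they are required for ciliation.

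The sequences below, from RefSeq (GRCh38.p14), show what the mimic can pair with; bases 2 to 8, the seed, are in capitals. miR-449a and miR-449b-5p have the seed of miR-34a-5p, miR-34b-5p and miR-449c-5p have it shifted by 1 base, and the passenger strand miR-34a-3p has another.
miR-34a-5p: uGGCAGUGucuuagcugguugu
miR-449a: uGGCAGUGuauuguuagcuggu
miR-449b-5p: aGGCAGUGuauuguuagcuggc
miR-34b-5p: uAGGCAGUgucauuagcugauug
miR-449c-5p: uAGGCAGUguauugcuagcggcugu
miR-34a-3p: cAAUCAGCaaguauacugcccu

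A messenger pairs with the miR-34a-5p seed through CACTGCC (called 7-mer-m8), through ACTGCC followed by A (7-mer-A1, ACTGCCA) or through both (8-mer, CACTGCCA). Windows of 22 bases that end at such a match are shown for genes that were lower with the mimic, read from GENCODE 29 transcripts on GRCh38, with the matched bases in capitals. They were chosen because each gene is described below; the AXL match lies at chr19:41259934-41259955 on the plus strand, 44 bases after the stop codon in a 3′ UTR of 1862 bases.
AXL: ggatccaagctaagCACTGCCA
RRAS: agaaaaataaatgtCACTGCCA
FOSL1, upstream match: aaccccttccagatCACTGCCA
FOSL1, downstream match: taactcaccagcccCACTGCCA
LEF1: tccataaagacaatCACTGCCA
LDHA: cacctctgacgcacCACTGCCA
MET, upstream match: tccaatggttttttCACTGCCt
MET, downstream match: aattagatacttgtCACTGCCt
MYB: ggttgatagccagtCACTGCCt
TK1: cgctcccttcctgcCACTGCCg
TSEN15: aatgattcccaccaCACTGCCt

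The same letters are also found in genes that were not lower. These contrasts show that the match alone did not separate the genes: KLF4 and TNFSF15 carry an 8-mer and CD274 a 7-mer-A1 match, and their log2 ratios were 0.54, 3.62 and 1.04.
KLF4: gtggatatgacccaCACTGCCA
TNFSF15: aactagatcaactaCACTGCCA
CD274: aatagcagacctcagACTGCCA

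The non-treated library held 36263145 counted reads and the miR-34a library 32991380, with 88.8% and 87.1% on protein-coding genes. Values are the authors' gene counts, turned into CPM, the reads of a gene relative to the scaled library total, with TMM library scaling. A log2 ratio compares miR-34a with non-treated H1299 after adding a prior count of 2, and its 95% interval (exact Clopper-Pearson) covers counting error only. Genes are called higher or lower where the change reached 2-fold with an interval that left out 0; with 1 library a side this compares 2 libraries, there is no replicate error and no p-value is given. With pooled cultures, fewer cells of a kind and less RNA per cell cannot be told apart. Many named genes overlap another gene on the opposite strand, among them AXL, CDK4, MCM2, MCM7, TYMS, STAG3, SPAG17, AK8, SQSTM1 and KRT8, and if counting ignored strand the reads of such pairs cannot be separated.

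With the mimic, 492 genes were higher (3.62% of those entered) and 581 were lower (4.27%). These 2 shares are the ones to set beside each count of a gene list below. The median log2 ratio of all genes was 0.00 (SD 0.60 across genes), and 76.4% of genes lay within 1.5-fold. Calls were more frequent among shallow genes, at 18.6% of those with 50 to 99 reads against 4.34% of those with 2000 or more but fewer than 5000 reads. Among the 1588 genes with 5000 or more reads, 14 were higher and 86 lower, with a median of -0.05. The entry rule bears on these counts: 173 of the higher genes had fewer than 50 reads in the non-treated library and 170 of the lower genes fewer than 50 in the miR-34a library. In the DDX21 KO pair 217 genes were higher (1.62%) and 226 lower (1.69%). Of the genes higher in H1299 that also entered in the knockout, 397 of 428 had a ratio above 0 there, and 469 of 497 lower genes had one below 0. These counts compare signs only, and the share with the same sign over all genes was not computed. The knockout median was 0.00 over 11313 protein-coding genes with a 3′ UTR that entered in both lines.

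**Figure D1:**
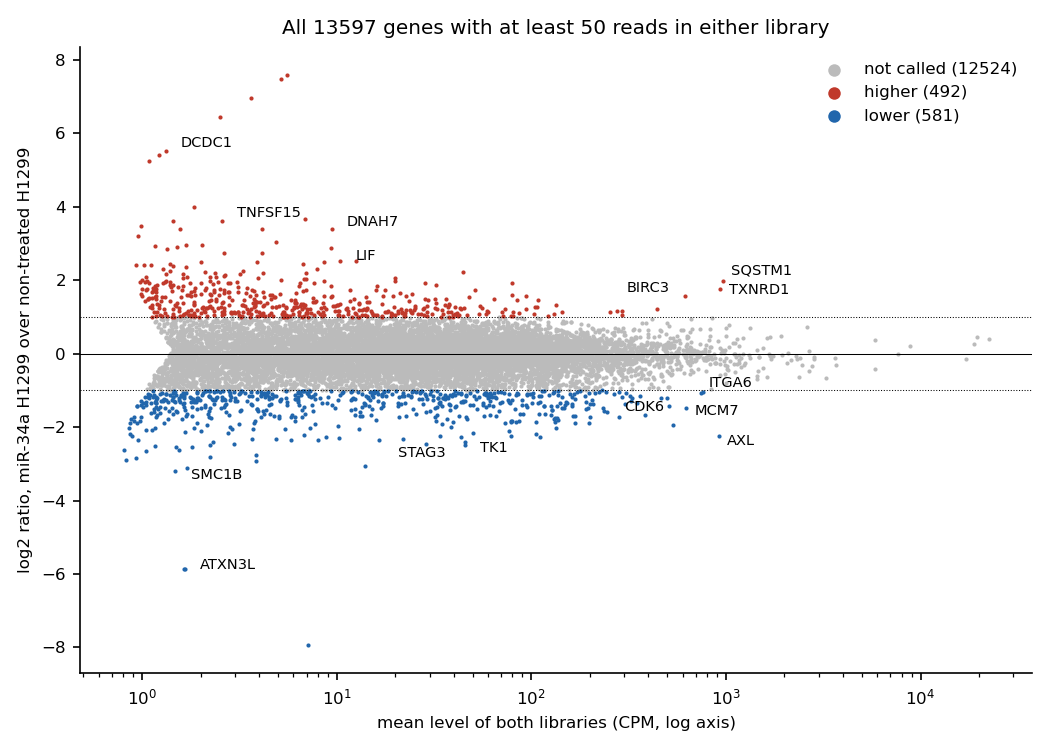
Log2 ratio of miR-34a to non-treated H1299 (vertical axis) against the mean level of both libraries in CPM (horizontal log axis) for the 13597 genes, 1 point a gene, with 492 higher and 581 lower genes coloured and dotted lines at 2-fold. The abundant end holds more lower than higher genes, with AXL, MCM7 and CDK6 below and SQSTM1, TXNRD1 and BIRC3 above.

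The identity of the cells was checked on marker genes. VIM, an intermediate filament gene of mesenchymal-like lines, was at 2061 and 2092 CPM, while the lung genes NKX2-1 and SFTPC had no read and CDH1 had 5 and 1 reads. None of 8 fibroblast markers entered, with summed levels of 1.37 and 0.730 CPM, and LUM, FAP and THY1 had no read in either library. Of 6 endothelial markers KDR alone entered, with 22 and 54 reads, and of 8 leukocyte markers ITGAM alone, with 80 and 144; PECAM1 and PTPRC had no read. The part of the small summed rise of these markers (0.812 to 1.70 CPM for endothelial, 2.58 to 4.50 CPM for leukocyte genes) in any result was not tested.

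The mimic itself is not measured in the gene table. The gene of the miR-34a precursor, MIR34A, had 0 reads in all 4 libraries, and its host transcript MIR34AHG had 4 reads without and 6 with the mimic in H1299.

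Messengers with a miR-34a seed match in the 3′ UTR were shifted down as a group. Of 11590 protein-coding genes with an annotated 3′ UTR, the 692 with an 8-mer had a median log2 ratio of -0.19, and 9.25% of them were lower and 1.01% higher. The 1317 genes whose best match was a 7-mer-m8 had a median of -0.07 with 5.24% lower, the 728 with a 7-mer-A1 a median of -0.06 with 3.85% lower, and the 1314 with only the 6 bases ACTGCC a median of -0.04 with 2.66% lower. The 7539 genes without a match had a median of 0.07, with 2.93% lower and 4.07% higher. The order of the medians followed the length of the match, but each class is a broad distribution and most 8-mer genes were not called. In the knockout pair the medians of the 8-mer and no-match classes were -0.15 and 0.03.

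**Figure D2:**
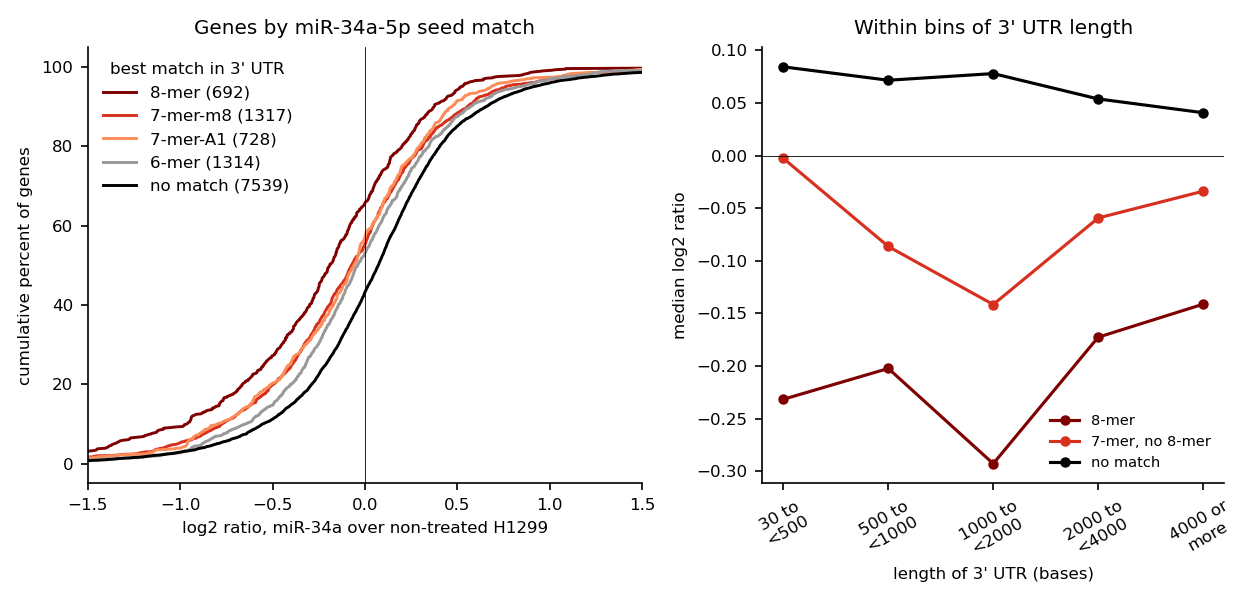
Left, cumulative percent of genes (vertical axis) by log2 ratio of miR-34a to non-treated H1299 (horizontal axis), 1 line for each class of best 3′ UTR match; right, the median log2 ratio (vertical axis) within 5 bins of 3′ UTR length (horizontal axis). The 8-mer line lies left of the others, with a median of -0.19 against 0.07 for genes with no match, and below the no-match line in each length bin.

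Genes with more 7-mer or 8-mer matches had lower medians. Genes with no 7-mer or 8-mer had a median of 0.06, those with 1 had -0.08, those with 2 had -0.15, those with 3 had -0.16 and the 33 genes with 4 had -0.22; the 19 genes with 5 or more had -0.25. More 8-mers alone did not follow this order, with medians of -0.19 for 637 genes with 1 and -0.16 for 55 with 2 or more, of which 9.26% and 9.09% were lower. Because long 3′ UTRs hold more matches by their length, the 8-mer class was also compared with the no-match class within 5 bins of 3′ UTR length, and the median differences were -0.32, -0.27, -0.37, -0.23 and -0.18 from the shortest to the longest bin. The shift was therefore present in each bin.

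The surroundings of the match went with the size of the shift for the 8-mer. Among genes with a single 8-mer and no other 7-mer or 8-mer, the 128 with the most A and T in the 30 bases on either side had a median of -0.25, the 142 in the middle -0.19 and the 147 with the least A and T -0.04. The 170 genes with the match close to either end of the 3′ UTR (within 20% of its length) had a median of -0.23, against -0.13 for the 247 with it further inside. The 18 genes in which 3 of the 4 bases facing miRNA bases 13 to 16 could pair had a median of -0.29 and the 398 with 0 to 2 such bases -0.16; only ACSL4 had all 4, and it was lower (-1.32). For single 7-mer-m8 matches the A and T content made no such order, with medians of -0.05, -0.07 and -0.04 from the most to the least A and T. Their medians were -0.08 near either end and -0.03 further inside, and -0.58, -0.13 and -0.05 with 4, 3 and 0 to 2 paired bases, where 0 of 6, 1 of 44 and 41 of 945 genes were lower.

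Matches outside the 3′ UTR went with smaller differences in medians than the 8-mer within it. Among genes with no match of any kind in the 3′ UTR, some had a 7-mer or 8-mer in the coding sequence. Their medians differed from those of genes without one by -0.03, -0.08, -0.08, -0.11 and -0.06 over 5 bins of coding length. Of the genes with such a coding match 5.05% were lower, against 2.30% of those without, beside 5.24% for the 7-mer-m8 in the 3′ UTR. Matches in the 5′ UTR showed no such difference in medians, with 0.10 for 185 genes with one and 0.09 for 5611 without. Of these 185 genes 4.87% were lower and 5.95% higher, against 2.21% and 4.44% of the 5611. Matches to the passenger strand seed (GCTGATT or CTGATTA) in genes with no miR-34a-5p match differed from no match by -0.17, -0.06, -0.12, -0.08 and -0.08 over the bins of 3′ UTR length. The miR-34a-5p 7-mers alone differed from no match by -0.09, -0.16, -0.22, -0.11 and -0.07 over the same bins, so the passenger strand difference was the larger one in the shortest bin, close to it in the longest and the smaller one in the others.

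Read from the side of the called genes, 161 of the 417 lower genes with a 3′ UTR (38.6%) had a 7-mer or 8-mer, against 23.3% of uncalled and 16.4% of higher genes. No match of any kind was found in the 3′ UTR of 221 of these lower genes (53%), against 65.2% of uncalled genes. Of these 221 genes, 88 had a 7-mer or 8-mer in the coding sequence. Unless another place is named, a seed match below is one in the 3′ UTR. The share with a 7-mer or 8-mer there depended on the kind of gene. Of the 124 lower genes in the cell cycle, replication and repair lists 21 had one (16.9%, against 14.9% of the uncalled genes in these lists). For the 8-mer alone the shares were 5.65% of lower and 2.08% of uncalled genes in these lists. Of their 14 genes with an 8-mer 7 were lower, with a median of -1.04. Of their 349 genes with no match 27.5% were lower, with a median of -0.64. Of the 293 lower genes outside them 140 did (47.8%, against 23.6%).

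Genes reported as miR-34a targets were assembled into 3 lists with 91 members that entered. Of these 23 were lower, 1 was higher and the median log2 ratio was -0.45, beside 4.27% lower and a median of 0.00 over all genes. Of the 23 lower genes 19 had a 7-mer or 8-mer, 13 of them an 8-mer. Such genes entered the literature because they fall with miR-34a and often carry a match, so the count is a description.

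Among receptors and surface proteins 3 of 16 were lower and 1 was higher. AXL, a receptor tyrosine kinase for GAS6 that is prominent in mesenchymal-like lung cancer, was at 1517 CPM in non-treated and 322 CPM in miR-34a cells, a log2 ratio of -2.24 (-2.27 to -2.21) or 4.71-fold lower. MET, the receptor of hepatocyte growth factor, was at 166 and 45.4 CPM (-1.87, interval -1.95 to -1.79). NOTCH2, a receptor of the Notch pathway, was at 153 and 75.2 CPM (-1.03), just inside the 2-fold limit, and has only a 6-base match. CD274, which encodes the checkpoint ligand PD-L1 and is known as a miR-34a target elsewhere, was higher, with 131 and 250 reads (1.04, interval 0.74 to 1.37). The difference for AXL was -1195 CPM, while its relatives MERTK and TYRO3 had ratios of -0.42 and -0.19 and its ligand gene GAS6 0.65.

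Of 30 targets that act in the cell cycle and growth signalling 12 were lower and none was higher, with a median of -0.78 in H1299 and -0.56 in the knockout. RRAS, a small GTPase of the RAS family, fell from 523 to 98 reads (-2.28, interval -2.62 to -1.98). FOSL1, an AP-1 subunit that is known to act downstream of RAS in lung cancer, fell from 1996 to 389 reads (-2.23). TPD52, a regulator of vesicle traffic that is amplified in some tumours, fell from 130 to 27.4 CPM (-2.24, interval -2.35 to -2.14). Each of these carries at least 1 8-mer. The 2 kinases that drive cells through G1 differed in their matches. CDK4 was at 166 and 52.8 CPM (-1.65) with no match in its 3′ UTR, and CDK6 at 699 and 302 CPM (-1.21) with 3 matches in a 3′ UTR of 10219 bases. MYB, a transcription factor of dividing progenitors, had 162 and 32 reads (-2.16), and E2F5, a member of the E2F family, 1602 and 500 (-1.56). MAP2K1, the MEK1 kinase, was at 82.2 and 31.4 CPM (-1.39), and CCNE2, which encodes a cyclin of the G1 to S transition, at 39.9 and 17.9 CPM (-1.15). Several well known names lay near 0: MYC and CCND1 were both at -0.20, and NRAS and HRAS at 0.29 and 0.48.

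Of 45 targets in survival, chromatin and metabolism 8 were lower and none was higher, with a median of -0.46. LEF1, a transcription factor of the Wnt pathway, had 170 and 52 reads (-1.56), and TERT, the catalytic subunit of telomerase, 173 and 54 (-1.53, with no match). TGIF2, a repressor in TGF-beta signalling, was at 36.4 and 12.8 CPM (-1.5) and shares exons with the read-through gene TGIF2-RAB5IF, so part of its reads could belong there. LDHA, which makes lactate from pyruvate, fell from 501 to 199 CPM (-1.33, interval -1.38 to -1.29), and ACSL4, which activates arachidonic acid for membrane lipids, from 215 to 85.7 CPM (-1.32). BIRC5, the survivin gene of mitosis and survival, was at 203 and 79.4 CPM (-1.35), and HDAC1, a histone deacetylase, at 135 and 63.1 CPM (-1.09). The textbook targets SIRT1, a protein deacetylase, and BCL2, an inhibitor of apoptosis, did not reach the call: SIRT1 was at 59.7 and 37.0 CPM (-0.69, interval -0.79 to -0.59) and BCL2 at 4.14 and 2.10 CPM (-0.96). MDM4, with 7 matches, was at -0.78 (interval -0.91 to -0.66), and SIRT7 at 0.84. The intervals of SIRT1, BCL2 and MDM4 lie below 0, with changes smaller than 2-fold.

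**Figure D3:**
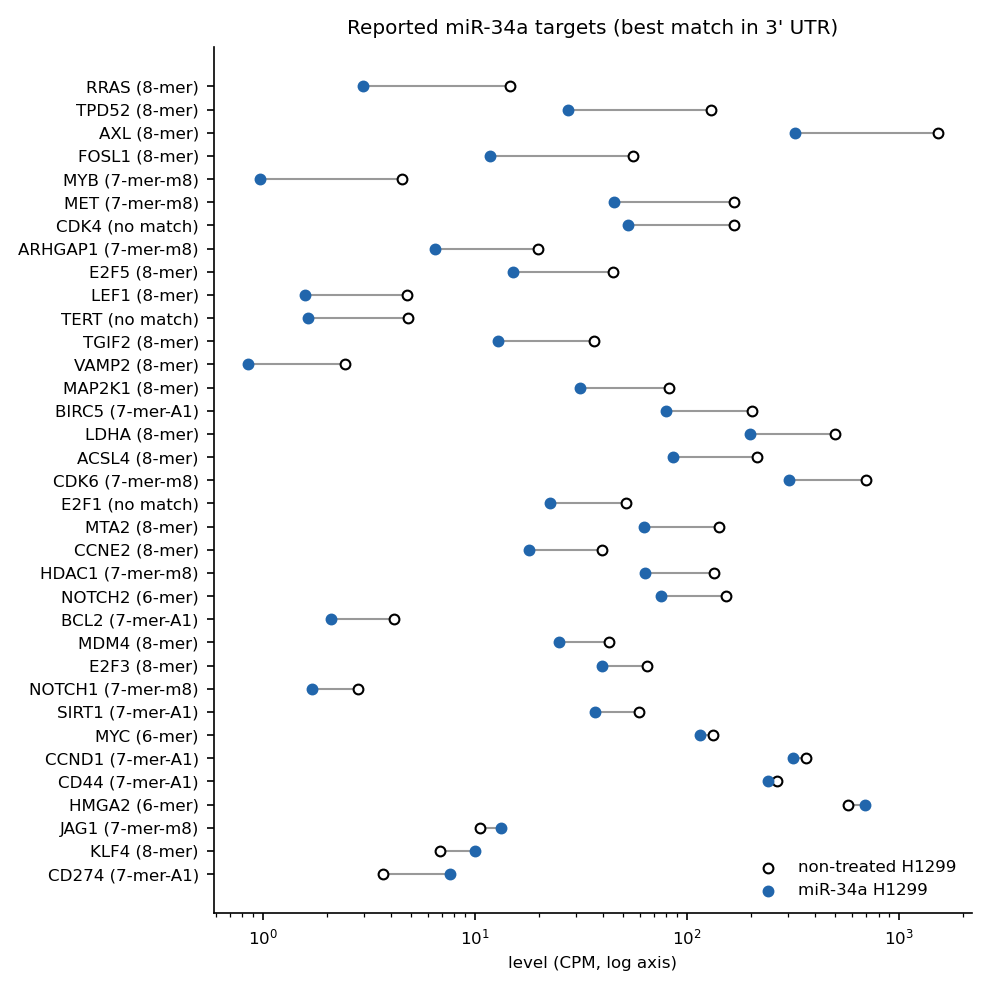
Level in CPM (horizontal log axis) of 35 reported miR-34a targets in non-treated (open) and miR-34a (filled) H1299, 1 library each with no error bar, ordered by ratio, with the best 3′ UTR match beside the name. RRAS, TPD52, AXL, FOSL1 and MYB at the top are 4-fold or more lower, and CD274 at the bottom is higher.

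Outside these lists the lower genes with the firmest counting bounds included other carriers of a match. TSEN15, a subunit of the tRNA splicing endonuclease, fell from 1735 to 290 reads (-2.45, interval -2.65 to -2.28). MIEF1, a receptor for the mitochondrial fission factor DRP1, fell from 1311 to 242 reads (-2.31) and shares exons with AL022312.1. RTL8A and RTL8B, X-linked genes derived from a retrotransposon, fell from 141 to 17 (-2.80) and from 246 to 28 reads (-2.93); they are close copies of each other and their counts are uncertain. PEG10, an imprinted gene of the same origin, fell from 311 to 83.8 CPM (-1.89) and carries 3 matches. STRAP, a subunit of the SMN complex, fell from 443 to 201 CPM (-1.14). Others had no match, among them ECHS1, a mitochondrial enzyme of fatty acid oxidation, with 2933 and 607 reads (-2.15, and also -2.15 in the knockout). CD68, a lysosomal membrane protein, had 609 and 113 reads (-2.29, and -2.45 in the knockout) with only a 6-base match. FSBP, with 894 and 98 reads (-3.05), shares exons with RAD54B, and TMEFF1, with 479 and 85 (-2.35), with a read-through gene, so neither count is certain.

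Genes of DNA replication, mitosis and repair were lower as a group. Of 488 members of these lists that entered, 149 were lower and 2 higher, beside 4.27% lower and 3.62% higher over all genes. The median was -0.71, beside 0.00 over all genes. Of the 149, 55 were replication-dependent histone genes. Most lists describe a proliferating cell's machinery, but kinesins without a mitotic role and CDK inhibitors were included too. The 2 higher members were FANCF, a Fanconi anaemia subunit with 40 and 78 reads, and KIF9, a kinesin of cilia with 238 and 516 reads (1.23).

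At replication origins 14 of 30 genes were lower and none was higher, with a median of -0.97 in H1299 and -0.56 in the knockout. GINS1, a subunit of the replicative helicase, was at 50.9 and 14.3 CPM (-1.83, interval -1.99 to -1.69), and GINS3 at 24.7 and 7.08 CPM (-1.79), the latter with an 8-mer. MCM2 and MCM7, which form the ring of that helicase, were at 308 and 93.4 CPM (-1.72) and at 919 and 331 CPM (-1.47, interval -1.5 to -1.44). Neither MCM gene has a match. ORC4, a subunit of the origin recognition complex, was the highest of the list at 0.23. Among polymerase and fork factors 8 of 34 were lower, with a median of -0.85. TIMELESS and CLSPN, which protect stalled forks, were at -1.43 and -1.40, PCNA, the sliding clamp, at -1.13 (189 and 86.4 CPM), and POLD4, a small polymerase subunit, at 0.68.

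Of 33 genes of deoxynucleotide synthesis 5 were lower, with a median of -0.42. TK1, the thymidine kinase of S phase, fell from 77.2 to 13.8 CPM (-2.47, interval -2.63 to -2.34), 5.56-fold, and carries a match 34 bases after its stop codon. TYMS, thymidylate synthase, fell from 135 to 38 CPM (-1.83), and RRM2, the regulated subunit of ribonucleotide reductase, from 407 to 180 CPM (-1.17). The forms that also work outside S phase stood apart, with TK2 at 0.54 and RRM2B at 0.30. Of 23 genes of chromatin assembly 6 were lower, among them CHAF1A and CHAF1B, which load histones behind the fork, at -1.32 and -1.20.

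Replication-dependent histone genes, whose messengers are made in S phase and end in a stem-loop in place of a poly(A) tail, were lower almost throughout: 55 of 57 were lower, and the median was -1.57 in H1299 and -0.69 in the knockout, where 5 were lower. Their summed level was 11870 CPM in non-treated and 4069 CPM in miR-34a cells. H4C9 had 988 and 178 reads (-2.34) and H3C4 6585 and 1268 (-2.26), and the member nearest to 0, H2AW, had 138 and 99 (-0.35). These libraries were made after removal of ribosomal RNA, so RNA without a poly(A) tail was kept; members have near-identical coding sequences and the split of reads among them is uncertain, which does not touch the sum. Of 11 variants made outside S phase 2 were lower: CENPA, the histone of centromeres, at -1.16 and H2AX, the variant marked at DNA breaks, at -1.10. H3-3B, which supplies H3.3 to dividing and resting cells, was at 0.28.

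In mitosis, 13 of 42 kinase, anaphase promoting complex and cytokinesis genes were lower, with a median of -0.90, and so were 7 of 44 kinetochore genes (-0.71) and 4 of 14 mitotic kinesins (-0.84). HMMR, a spindle protein, fell from 204 to 59.2 CPM (-1.78, interval -1.86 to -1.71). PLK1, a kinase of mitotic entry, was at 48.5 and 19 CPM (-1.35), and CDC20, an activator of the anaphase promoting complex, at 224 and 99.6 CPM (-1.17). CENPF of the kinetochore and MKI67, which coats mitotic chromosomes, were at 647 and 278 CPM (-1.22) and at 466 and 189 CPM (-1.30). SPC25 of the kinetochore was at -1.70 and the kinesin KIF18B at -1.63. Among 21 kinesins without a mitotic role 1 was higher and 2 lower, and the median was 0.13, against -0.84 for the mitotic ones.

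Condensin and cohesin genes were lower in 7 of 23 cases with a median of -0.69. The 2 largest changes were in cohesin subunits otherwise known from meiosis: STAG3 fell from 77.4 to 14.5 CPM (-2.41, interval -2.56 to -2.28) and SMC1B from 97 to 8 reads (-3.2, interval -4.73 to -2.45). Neither has a match. Ratios of germline genes went both ways. Of 19 cancer-testis genes, which these also count among, 4 were lower (21.1%, beside 4.27% of all genes) and none higher. Of the 4, SMC1B and CTCFL entered through the non-treated library alone, so the entry rule bears on this share. Of the ratios of all 19 genes 8 were below 0 and 11 above it, with a median of 0.07. The other lower ones were CTCFL, a germline relative of CTCF, at 122 and 33 reads (-1.71) and SYCP2, of the synaptonemal complex, at 114 and 52.4 CPM (-1.12). MAGEA2, MAGEA3, MAGEA6, MAGEA12 and MAGED2 were at 0.44, 0.24, 0.24, 0.31 and 0.46, with some counts uncertain between near-identical copies. TDRD12, a factor of piRNA biogenesis that is not in the list, was at 1025 and 501 CPM (-1.03). NCAPD2, a condensin subunit of somatic cells, was at 501 and 225 CPM (-1.16).

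Repair was divided. Of 37 genes of homologous recombination and the Fanconi pathway 11 were lower and 1 higher (median -0.84), with RMI1, of the complex that dissolves crossed strands, at 49.9 and 15.5 CPM (-1.68) and the nuclease subunit EME1 at 42.9 and 14.3 CPM (-1.58). Of 29 genes of mismatch and excision repair none was called in either direction, and the median was -0.17, with a range from DDB2 at -0.82 to ERCC6 at 0.91.

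Some regulators of this programme were lower too. Of 21 E2F, pocket protein and DREAM genes 6 were lower and none higher (median -0.37), with LIN37 at 0.90 and E2F6 at 0.20. MYBL2 and FOXM1, activators of mitotic genes, were at 93.3 and 29.2 CPM (-1.67) and at 101 and 34.7 CPM (-1.55), and E2F1 and E2F2, activators of replication genes, at -1.18 and -1.43. Of 23 cyclins 4 were lower, including CCNA2 (-1.10) and CCNB1 (415 and 200 CPM, -1.06) of S phase and mitosis, while CCNE1 was at 0.34. Of 7 CDK inhibitors (median 0.10) CDKN2C (-1.48) and CDKN3 (-1.36) were lower, while CDKN1A, which encodes p21, was at 19.8 and 37.0 CPM (0.90, interval 0.77 to 1.04), just under the 2-fold limit in H1299 and at 0.16 in the knockout.

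**Figure D4:**
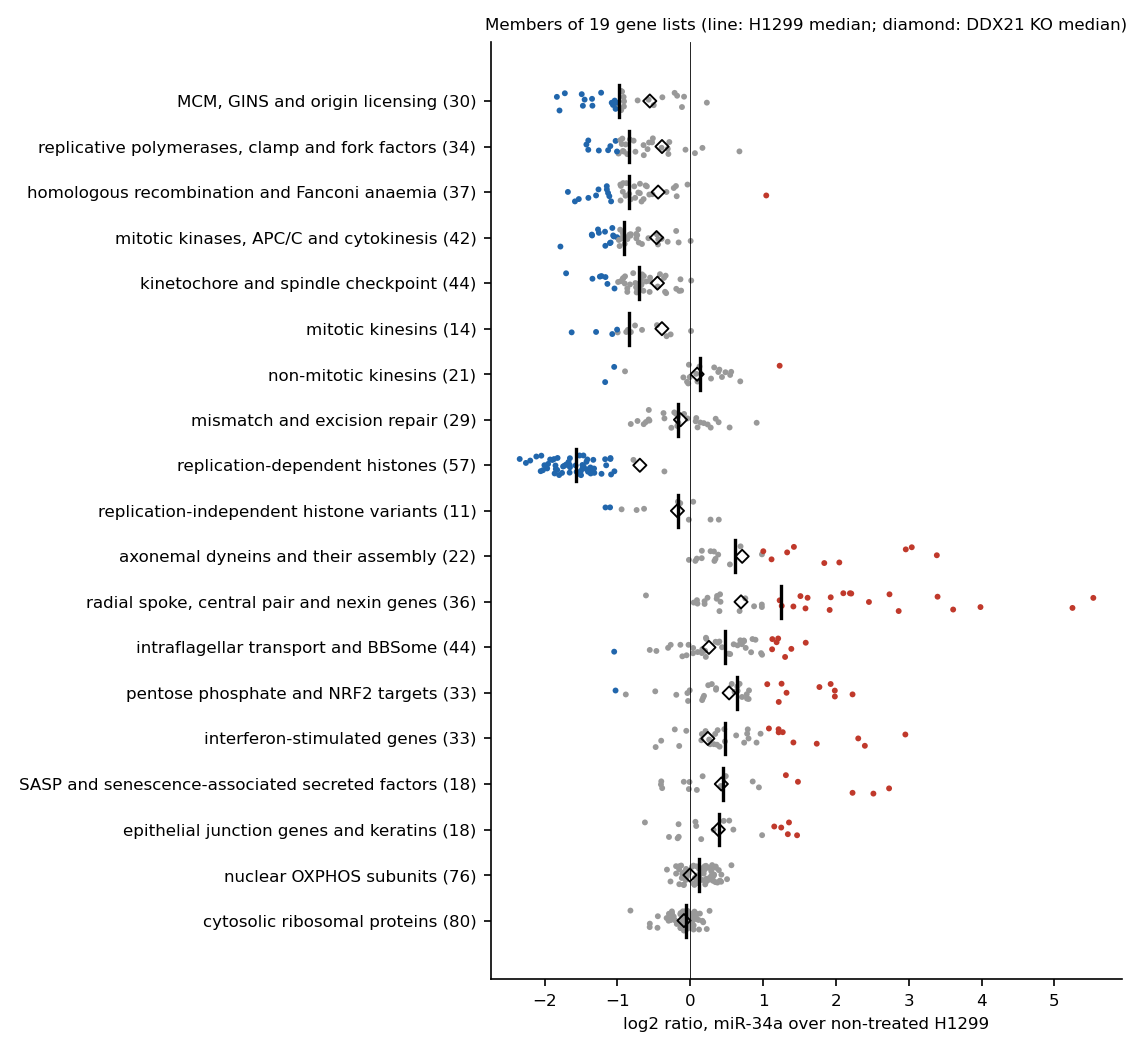
Log2 ratio of miR-34a to non-treated H1299 (horizontal axis) for the members of 19 gene lists (rows, number of members in brackets), 1 point a gene, blue if lower and red if higher; a line marks the H1299 median and a diamond the DDX21 KO median. The histone median lies at -1.57 and the origin median at -0.97, the radial spoke and central pair median at 1.24.

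Promoters of the lower genes were searched for 4 motifs on both strands, from 250 bases before to 50 bases from the RefSeq start (GRCh38.p14), in 9778 protein-coding genes that entered and had a promoter sequence. E2F motifs were TTTCGCGC, TTTGGCGC, TTTCCCGC and TTTGCCGC; the cell cycle homology region (CHR), bound by the DREAM and MYBL2 complexes, was TTTGAA or TTCGAA. An E2F motif was present in 59 of 378 lower genes (15.6%), in 5.71% of all these promoters and in 1.54% of higher genes. A CHR was present in 19.3% of lower genes, 11.1% of all and 9.85% of higher genes. By list, 12 of 24 origin genes had an E2F motif, and 22 of 34 mitotic kinase genes and 11 of 14 mitotic kinesins had a CHR, against 1 of 16 other kinesins. The CCAAT box was in 44 of 53 histone promoters (83.0%) and in 37.6% of all. Such matches are letters in a window, not binding; none of the motifs contains another, though their ends can overlap. The promoters of MCM7 (chr7:100101348-100101647, minus strand) and CDC20 (chr1:43358731-43359030, plus strand) are shown as examples of each kind, with the motif in capitals; the E2F motifs of MCM7 start 187 and 9 bases before the transcription start and the CHR motifs of CDC20 178 and 65 bases before it.
MCM7: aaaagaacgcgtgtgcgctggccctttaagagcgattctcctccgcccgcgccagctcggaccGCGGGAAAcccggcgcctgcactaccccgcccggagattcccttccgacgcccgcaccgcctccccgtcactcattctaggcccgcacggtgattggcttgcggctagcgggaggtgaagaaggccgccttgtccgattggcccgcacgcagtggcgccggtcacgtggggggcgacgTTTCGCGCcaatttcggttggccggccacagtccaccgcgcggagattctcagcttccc
CDC20: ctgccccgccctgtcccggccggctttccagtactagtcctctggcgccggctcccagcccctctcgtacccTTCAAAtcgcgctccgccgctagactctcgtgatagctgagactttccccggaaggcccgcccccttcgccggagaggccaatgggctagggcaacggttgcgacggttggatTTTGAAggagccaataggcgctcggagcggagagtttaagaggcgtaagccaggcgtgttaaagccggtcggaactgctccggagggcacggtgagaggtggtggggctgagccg

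Many genes of the ciliary axoneme, the microtubule core of motile cilia, were higher with the mimic. Of 152 members of the cilia lists that entered 40 were higher and 5 lower, with a median of 0.38, beside 3.62% higher and a median of 0.00 over all genes. Only 2 of the 40 had a 7-mer or 8-mer. Levels were low: the summed level of the 38 listed dynein and assembly genes was 400.2 and 595.5 CPM, and that of 75 radial spoke, central pair and nexin genes 341 and 539 CPM.

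Of 22 axonemal dynein and assembly genes 9 were higher and none was lower, with medians of 0.62 in H1299 and 0.71 in the knockout. Of the 9, 3 entered through the miR-34a library alone. With entry by reads in either DDX21 KO library, of which the miR-34a one also received the mimic, 10 of 21 were higher. The H1299 median was then 0.99. DNAH7, an inner arm dynein heavy chain, rose from 57 to 567 reads (3.39, interval 3.04 to 3.85). ZMYND10, a cytoplasmic factor for dynein assembly, rose from 36 to 287 reads (3.04), and CFAP94 from 12 to 99 (2.96). DNAI4, an intermediate chain, rose from 93 to 360 reads (2.05). DNAAF4, an assembly factor, rose from 144 to 480 reads (1.84) but overlaps the read-through gene DNAAF4-CCPG1. The group was uneven: DNAH8, with 1641 and 1493 reads, had the most reads among those named and a ratio of -0.02, and DNAH1 was at 0.07.

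Of 36 radial spoke, central pair and nexin genes 19 were higher and none was lower (median 1.24 in H1299, 0.70 in the knockout, where 11 were higher). The other 39 listed genes had too few reads, and 13 of the 19 entered through the miR-34a library alone, so the entry rule itself bears on this count and median. With entry by 50 reads in either DDX21 KO library, a rule chosen after the data were seen that uses neither H1299 library, 17 of 34 were higher with an H1299 median of 1.11. That rule also counts the miR-34a DDX21 KO library, so genes higher with the mimic in both lines could still enter through it. SPAG17, of the central pair, had 0 and 71 reads and was at least 25.7-fold higher, taking the floor of 3 reads for the non-treated library. DCDC1, a microtubule-associated protein, had 0 and 87 reads, at least 31.5-fold higher. AK8, an adenylate kinase of the axoneme, had 6 and 116 reads (3.99), SPEF1, of the central pair, 10 and 79 (2.86), and ROPN1L, of the radial spoke, 23 and 152 (2.74). HYDIN, of the central pair, rose from 87 to 378 reads (2.21), and its near-identical copy HYDIN2 from 11 to 89, so their counts are uncertain. CFAP206 rose from 24 to 251 reads (3.40) and shares exons with AL049697.1. In the knockout, SPAG17 had 40 and 89 reads and DCDC1 9 and 87, so neither started from 0 there. MNS1, a protein inside the axonemal tubules, was at -0.61 and did not move with the others.

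The transcription factors and centriole proteins that drive multiciliation in airway cells did not share this direction. Of 20 such genes 4 were lower and 1 was higher; the median was -0.38. MYB and E2F5, both named above as miR-34a targets, were the lowest at -2.16 and -1.56, CEP152, a centriole assembly protein, was at -1.18, and RFX3, an activator of ciliary genes, at -0.30. The higher one was BBOF1, a basal body protein, with 91 and 479 reads (2.49). OSCP1, which is in none of these lists, rose from 78 to 545 reads (2.89).

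Transport and gating genes are also used by primary cilia. Of 44 intraflagellar transport and BBSome genes 7 were higher and 1 lower (median 0.48), with DYNC2LI1, a light chain of the retrograde motor, at 11.3 and 34.1 CPM (1.59), IFT88 at 16.8 and 41.5 CPM (1.30), and the motor KIF17, which has 3 matches, lower at 5.52 and 2.65 CPM (-1.04). Of 30 transition zone and Hedgehog genes 4 were higher and 10 had ratios below 0 (median 0.24), led by TCTN2, of the ciliary gate, with 274 and 1054 reads (2.05, interval 1.87 to 2.26).

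**Figure D5:**
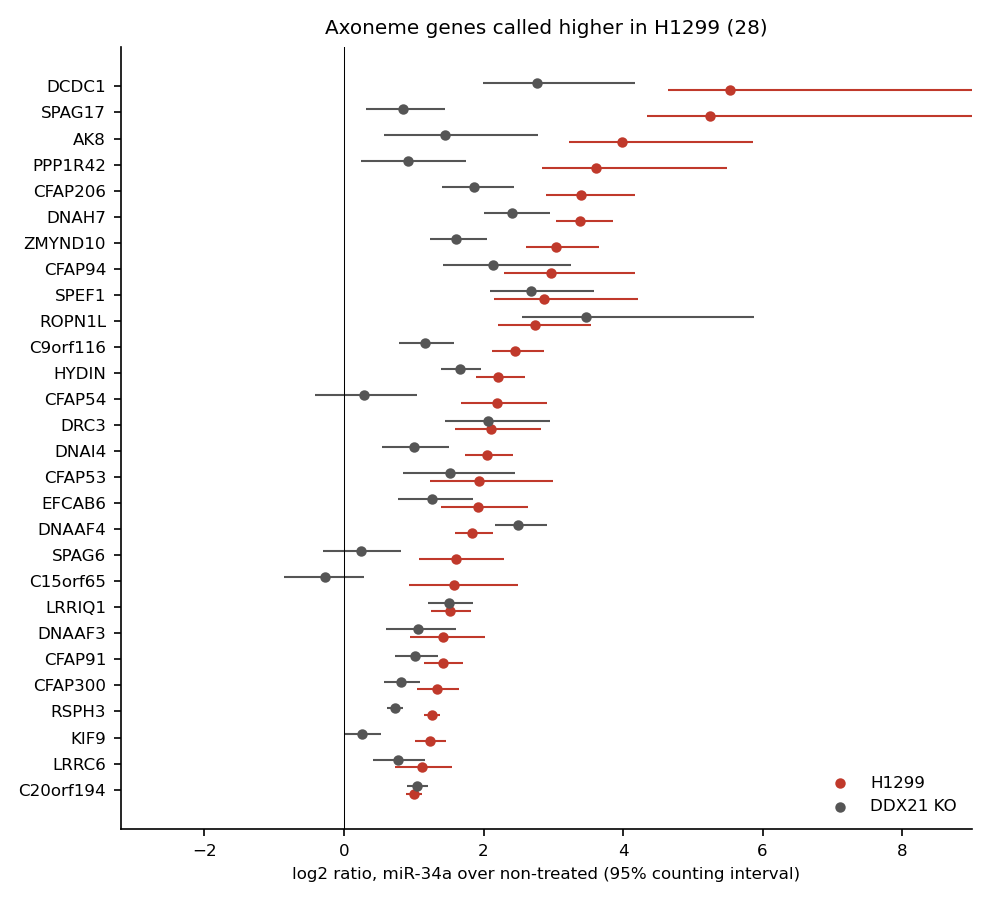
Log2 ratio of miR-34a to non-treated (horizontal axis) with its 95% counting interval for the 28 axoneme genes called higher in H1299 (red), beside the same genes in DDX21 KO (grey). The genes were selected on the red values; the intervals of DCDC1 and SPAG17, which had 0 reads in non-treated H1299, have no upper end, and C15orf65 alone lies below 0 in the knockout.

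Among protein-coding genes called higher, the 2 that gained most in CPM, SQSTM1 and TXNRD1, belong to oxidative stress defence and selective autophagy. Of 33 genes of the pentose phosphate pathway and of NRF2, the transcription factor that answers oxidants, 9 were higher (27.3%) and 1 lower (3.03%). Over all genes 3.62% were higher and 4.27% lower. The list medians were 0.65 in H1299 and 0.53 in the knockout, and the summed level of the 38 listed genes was 3452 and 7062 CPM. SQSTM1, the autophagy receptor p62 that also frees NRF2 from KEAP1, rose from 390 to 1543 CPM (1.99, interval 1.96 to 2.01). TXNRD1, a thioredoxin reductase, rose from 424 to 1451 CPM (1.77, interval 1.75 to 1.80). These differences were 1153 and 1027 CPM. HMOX1, which degrades haem, rose from 421 to 1481 reads (1.93), OSGIN1, a growth inhibitor induced by oxidants, from 285 to 1045 (1.99), SRXN1, sulfiredoxin, from 76.3 to 191 CPM (1.32) and NQO1, a quinone reductase, from 190 to 397 CPM (1.06). FTL, the ferritin light chain, rose from 266 to 618 CPM (1.22). The pentose phosphate enzymes TALDO1, TKT and PGD were not called, at 0.36, 0.18 and -0.48. The antioxidant response element TGACNNNGC was in 5 of 24 promoters of this list (20.8%), 15.1% of all promoters and 16.3% of those of higher genes.

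Few autophagy and lysosome genes were called, although most ratios lay above 0. Of 38 autophagy genes 3 were higher (median 0.33), SQSTM1 and MAP1LC3A, an LC3 family protein of the autophagosome membrane, with 111 and 283 reads (1.45) and ATG4A, an LC3 protease, with 407 and 756 (1.01). ATG9A and ATG4B, which carry a match, were at -0.93 and -0.76. Of 17 proton pump (V-ATPase) genes 1 was higher, with 16 ratios above 0 and a median of 0.47. Of 43 lysosomal genes 2 were lower (4.65%, near the 4.27% of all genes), CD68 (-2.29) and SMPD1 (-1.24), with a median of 0.30.

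Cytokine and NF-kB genes were higher in part. Of 20 genes 6 were higher and 1 lower, with medians of 0.56 in H1299 and 0.49 in the knockout. Of the 6, 1 entered through the miR-34a library alone, and the lower gene entered through the non-treated library alone. TNFSF15, a TNF family cytokine whose 8-mer is shown above, rose from 12 to 158 reads (3.62, interval 2.99 to 4.82). LIF, a cytokine of the interleukin 6 family, rose from 109 to 583 reads (2.52), IL32 from 250 to 834 (1.85) and ICAM1, an adhesion molecule for leukocytes, from 589 to 1300 (1.26). PTGS2, the inducible cyclooxygenase, was lower with 63 and 18 reads (-1.59). BIRC3, an inhibitor of apoptosis that NF-kB induces, rose from 313 to 926 CPM (1.57, interval 1.53 to 1.6), and IL1RAP, the shared interleukin 1 receptor chain, from 33.0 to 125 CPM (1.93).

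Of 18 factors secreted by senescent cells 5 were higher and none lower, with medians of 0.44 and 0.43 in the 2 lines. Of the 5, 1 entered through the miR-34a library alone. MMP1, an interstitial collagenase, rose from 37 to 237 reads (2.73) and STC1, a secreted glycoprotein hormone, from 558 to 2416 reads (2.23) despite 2 matches. LMNB1, a lamina gene that is known to fall in senescence, was at -0.39. Among 11 AP-1 genes FOSL1 was lower and 3 were higher, FOS with 58 and 171 reads (1.64), JUNB with 773 and 1736 (1.28) and MAFF with 426 and 853 (1.12).

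Of 33 interferon-stimulated genes 9 were higher (27.3%, beside 3.62% of all genes) and none was lower. The medians were 0.48 in H1299 and 0.24 in the knockout. Of the 9, 2 (IFI44 and GBP1) entered through the miR-34a library alone, so the entry rule bears on this count. IFI44 rose from 15 to 120 reads (2.95), GBP1, a guanylate-binding protein against intracellular pathogens, from 15 to 81 (2.40) and LGALS3BP, a secreted glycoprotein, from 94 to 436 (2.31). In the knockout IFI44 had 59 and 53 reads (-0.42), and GBP1 was at 0.53. Among sensors of foreign RNA, DDX58, which encodes RIG-I, had 808 and 1576 reads (1.08), TLR3 68 and 127 (1.00), and EIF2AK2, the kinase PKR, was at -0.15. The mimic is itself a duplex RNA and the control is not stated to have received one, so a response to RNA and one to the miR-34a sequence cannot be told apart. Of 31 genes of antigen presentation and checkpoints 3 were higher: CD274, PDCD1LG2, the second ligand of PD-1, with 35 and 130 reads (1.95), and TAPBPL, which edits peptides on class I molecules, with 24 and 85 (1.86). PDCD1LG2 and TAPBPL entered through the miR-34a library alone.

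Among 11 pro-apoptotic BCL2 relatives BIK rose from 34 to 144 reads (2.13) and BAK1 from 994 to 1888 (1.04). BIK entered through the miR-34a library alone. Of 25 caspases, death receptors and inhibitors 5 were higher, among them CASP4, an inflammatory caspase (26.8 and 64.0 CPM, 1.25), and 2 lower, BIRC5 and CASP2, the latter with an 8-mer (-1.17).

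At the cell surface, 5 of 18 epithelial junction and keratin genes were higher and none lower, with medians of 0.39 in both lines. Of the 5, 1 entered through the miR-34a library alone. CLDN1, a tight junction claudin, rose from 44.7 to 124 CPM (1.47), LSR, of tricellular junctions, from 260 to 616 reads (1.36), F11R, the junctional adhesion molecule A, from 762 to 1780 (1.34) and KRT8, a keratin of simple epithelia, from 182 to 404 CPM (1.15). CDH1 stayed at 5 reads or fewer, and of 16 genes of the mesenchymal programme TWIST2 was lower (-1.20) and MMP14, a membrane protease, higher (1.31), with ZEB1 at -0.69. TWIST2 entered through the non-treated library alone. Integrins split, with ITGA6, a laminin receptor chain, falling from 1005 to 481 CPM (-1.06), ITGA4 from 130 to 59.9 CPM (-1.11) and ITGA2, a collagen receptor chain, rising from 15.7 to 43.5 CPM (1.46).

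Among developmental pathways, 3 of 30 Wnt genes were lower (10.0%, beside 4.27% of all genes). They were LEF1, ZNRF3, a ligase that removes Wnt receptors (-1.17), and AXIN2, a feedback scaffold (-1.07). The last is known to follow Wnt activity. Notch genes went both ways, with NOTCH2 lower and the effectors HEY1 (31 and 78 reads, 1.39) and HES1 (82 and 162 reads, 1.08) higher. HEY1 entered through the miR-34a library alone. In the TGF-beta and BMP list NOG, which encodes the BMP antagonist noggin, rose from 53 to 211 reads (2.07) and ACVR1B, an activin receptor, was at -1.14. Of 42 chromatin regulators 3 were lower (7.14%, beside 4.27% of all genes). CBX2 and PCGF2, of the Polycomb complex, had 163 and 36 (-2.0) and 119 and 34 reads (-1.63). Both entered through the non-treated library alone. The other was UHRF1, of maintenance DNA methylation, at -1.16. In metabolism SLC2A3, a glucose transporter, rose from 57.7 to 160 CPM (1.47) while LDHA fell, and PHGDH, the first enzyme of serine synthesis, fell from 59.4 to 21.8 CPM (-1.44).

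The machinery that the mimic uses was mostly near 0. Of 33 genes of miRNA processing and silencing DCP2, the decapping enzyme, was higher (171 and 384 CPM, 1.17) and MOV10, an Argonaute-associated helicase, lower (49.3 and 22.6 CPM, -1.12). Each is 3.03% of the list, below the 3.62% higher and 4.27% lower of all genes. AGO2, the slicing Argonaute, was at 0.58 (240 and 360 CPM) in H1299 and 0.75 in the knockout.

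Several large housekeeping groups held no called gene in either direction. Over 76 nuclear genes of oxidative phosphorylation the median was 0.12, with a range from ATP5F1B at -0.32 to NDUFC1 at 0.57. Over 80 cytosolic ribosomal proteins it was -0.06, from RPS16 at -0.82 to RPS29 at 0.27, and over 77 mitochondrial ribosome proteins values ran from MRPL10 at -0.63 to MRPL43 at 0.48. None of 36 heat shock and chaperonin genes was called, with HSP90AA1 at -0.67 and DNAJB4 at 0.76. As groups without a called gene, they do not stand for all abundant genes. Among the genes with 5000 or more reads the SD of the log2 ratio was 0.49, and 6.3% were called.

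The transcript table gave much larger swings than the gene table. Of 42318 transcripts with 50 or more reads in either library 8723 were higher (20.6%) and 10155 lower (24.0%). Of 8270 genes with several such transcripts 3093 had one called higher and one called lower, and in 2842 of 5940 pairs of most abundant transcripts (47.9%) the log2 ratios differed by more than 2-fold. ACTN4, an actin crosslinker, is an example: XM_017027331 had 20383 and 0 reads and NM_004924 had 204 and 16416, while the gene's ratio was 0.05. RFX3 had 0 and 639 reads on NM_134428 and 587 and 0 on NM_001282116, with a gene ratio of -0.30. ATXN1 and DYNC2H1, a retrograde ciliary motor gene, had pairs of the same kind and gene ratios of 0.87 and -0.02. Whether such swings come from the assignment of reads between near-identical transcripts was not tested, and the values above therefore rest on genes.

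Transcripts of the same gene that differ in a seed match gave no clear separation. In 80 genes with 200 or more reads on both kinds, the transcripts with a match had a lower ratio than those without in 43 and a higher one in 37, with a median difference of -0.04. In the 16 genes in which the match was an 8-mer the median difference was -0.20 and 11 were lower. In 878 genes whose longer and shorter 3′ UTR forms both lack a match the median difference was -0.06. That is near the median for any match and closer to 0 than the 8-mer median. Single genes varied widely. The quartiles were -0.91 and 0.80 in these 878 genes and -0.55 and 0.47 in the 16 8-mer genes.

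The authors' deposited table of this comparison lists 908 genes, of which 525 differ at least 2-fold, 280 higher and 245 lower. An unadjusted p under 0.05 is given for 331 genes in the authors' deposited table, the smallest adjusted p is 0.756 and 0 are under 0.05. The 50 reads needed to enter here were reached by 462 genes of the authors' deposited table.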

How the data were processed

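RNA-seq was analysed for 1 library per group. Total RNA was extracted, ribosomal RNA removed and stranded libraries made, per the labels' protocols; Bowtie2 2.0.6, TopHat2 2.0.9 and GRCh38 are named in the submitters' processing notes. How reads were counted, whether by strand, and the authors' test are not stated. The deposited values are as follows: the authors deposited estimated counts per gene and per transcript (whole numbers), FPKM and TPM values, and a table of their own comparison with a signed fold change (a score without values between -1 and 1) and p-values, per the file headers. TPM was read only for checks.

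Here, counts were scaled with TMM factors (edgeR 4.0.16 in R 4.3.3, all 4 libraries), which were 0.985 and 0.997 for the H1299 pair. Log2 ratios used a prior count of 2, and each 95% interval came from the exact binomial split of a gene's reads (SciPy 1.17.1). Intervals and floors cover counting error only. A gene at 0 was given the floor of 3 reads, 0.0840 and 0.0912 CPM. The calls were tested on simulated data with known fold changes. Seed matches were read in the GENCODE 29 transcript with the longest 3′ UTR of at least 30 bases, promoters from RefSeq. Lists were described by counts and medians, with no test. The members and lists were chosen with earlier results of these data known. Genes named in the text were chosen by the counting bound nearest to 0, by the difference in CPM, as the highest and lowest members of lists, or as reported targets; a few (such as CDC20, PCNA, CDKN1A, MKI67, CENPF, RFX3, OSCP1 and DNAI4) were chosen after their values were seen. Some genes and gene lists are not reported here. Alternatives were DESeq2 1.42.0 size factors, total counts, other count minimums, prior counts and thresholds, FPKM, an assumed variation between libraries, and the shortest 3′ UTR. Entry by reads in either DDX21 KO library, with or without the mimic, was added after the data were seen.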

Additional observations from a re-analysis of the deposited data

Results flagged for a closer look

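Genes called in opposite directions in the H1299 and DDX21 KO pairs are listed with their values; with 1 library per group the difference between the lines was not tested. Of 13597 genes, 10 met this condition. Among protein-coding genes, ATXN3L, a relative of the deubiquitinase ataxin-3, had 118 reads in non-treated and 0 in miR-34a H1299 and was at least 36.2-fold lower, taking the floor of 3 reads for the miR-34a library. In the knockout it had 0 and 107 reads and was at least 29.3-fold higher. ZNF117, a zinc finger gene that shares exons with ERV3-1, was at 1.46 in H1299 and -1.83 in the knockout. LRP2BP had 56 and 13 reads in H1299 (-1.84) and a ratio of 1.14 in the knockout, and SORCS2, a sorting receptor, had 32 and 65 reads (1.09) and a ratio of -1.06.

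The others are read-through, pseudogene and noncoding loci. The read-through gene MICOS10-NBL1 had 0 and 340 reads in H1299, at least 123-fold higher with the floor of 3 reads, and 51 and 2 in the knockout (log2 ratio -3.94, interval -8.04 to -3.03). FMC1-LUC7L2, another read-through gene, was at -1.05 in H1299 and 1.25 in the knockout. The ribosomal protein pseudogenes RPL41P3 and RPS18P5 were at 1.44 and 2.27 in H1299, against -2.59 and -1.33, and the noncoding genes LOC101927365 and LOC105370461 at 1.63 and -1.23, against -1.64 and 1.59.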

How the results depend on the processing

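No paired analysis was possible because each group holds 1 library, and for the same reason no replicate could be left out. With DESeq2 size factors and with total counts, 516 and 518 genes were higher and 561 and 558 lower. The counts moved by more than 1.5 times with the count minimum and the threshold: 999 genes were higher and 1111 lower with a minimum of 10 reads, 265 and 383 with a minimum of 200, and 1443 and 1756 with a call at 1.5-fold. Transcript counts were 14535 higher and 16790 lower with a minimum of 10 reads and 3665 and 4312 with 200. Among reported targets 0 were higher with the authors' FPKM; among the cell cycle, replication and repair genes 1 was higher with FPKM and 1 with a minimum of 200. Of the cilia genes 25 were higher and 3 lower with a minimum of 200, which leaves out shallow genes, and 39 and 4 with entry by reads in DDX21 KO. The 8-mer to no-match difference stayed between -0.26 and -0.25 under all 6 alternatives run. Of 552 named genes, 19 lost and 3 gained a call with FPKM and 13 lost it with a prior count of 10; none changed direction. List medians kept their sign except those of at most 4 lists near 0 under any setting.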

Other observations

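Of 1010 long noncoding RNA genes 57 were higher (5.64%) and 64 lower (6.34%), beside 3.62% and 4.27% of all genes. LUCAT1, a long noncoding RNA known from stress and interferon responses, rose from 22 to 92 reads (2.08, interval 1.5 to 2.92). LINC00664 fell from 241 to 31 reads (-2.77) and HIF1A-AS2, antisense to the hypoxia factor gene HIF1A, from 349 to 62 (-2.34, and -0.48 in the knockout). NORAD, which holds Pumilio proteins, was at 0.64, and the small nucleolar RNA host SNHG16 at -0.82. Of 81 small nucleolar RNA genes 8 were lower (9.88%, beside 4.27% of all genes) and none was higher. Their median was -0.43, beside 0.00 over all genes. PP7080 had 506 and 0 reads and shares exons with SLC9A3, a sodium-proton exchanger, which had 133 and 709 reads, so the pair's counts are uncertain. The ribosomal RNA copy RNA28SN3 had 2581 and 495 reads (-2.26), beside a share of reads on ribosomal RNA genes of 0.663% and 0.431%.

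Called members of some smaller families are given here. Of 40 RAB genes, which direct vesicle traffic, 4 were higher (10.0%, beside 3.62% of all genes) and none was lower. They were led by RAB40B with 40 and 218 reads (2.50) and RAB6B with 39 and 119 (1.68). Both of these entered through the miR-34a library alone. Of 14 neuronal genes TUBB3, a neuronal tubulin also found in cancer lines, rose from 158 to 348 CPM (1.14) and MAP2 from 62 to 162 reads (1.47). The synaptic vesicle genes VAMP2, SYT11 and SYP were lower at -1.46, -1.46 and -1.38. All 3 of these lower genes entered through the non-treated library alone, so the entry rule bears on them. Of 40 nuclear pore and lamina genes NUP210 (64.8 and 19.8 CPM, -1.71) and NDC1 (-1.41) were lower. In the MYC network MXI1, a MYC antagonist, was at -1.68 and MXD4, another, at 1.48. XBP1, a transcription factor of the unfolded protein response with 2 matches, fell from 1732 to 642 reads (-1.31).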
